A study of Sus scrofa with 3 samples.

Results

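DNA methylation was compared in the liver of 3 kinds of pig, namely Enshi black pig (ES), Large White pig (LW) and Chinese wild boar (WB), and the regions described here were CG-poor stretches that were listed as different between 2 breeds although both breeds had a low level. A region was taken where it lay on chromosomes 1 to 18, was shorter than 1000 bp, held fewer than 10 CG sites per 100 bp, and had a level of at most 40% in the higher of both breeds. Of 25044 listed regions in the 3 breed comparisons, 20588 lay on these chromosomes, 16436 of those were short and CG-poor, and 150 of the latter were low in both breeds. They made up 0.729% of the autosomal regions and 0.913% of the short CG-poor regions. The ES-LW comparison gave 61 of them, ES-WB 63 and LW-WB 26, where each name gives both breeds in the order of the deposited levels. The deposited levels of both breeds chose these regions, so their levels, directions and differences are a description and no test was made on them.

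All 3 groups were male pigs at postnatal day 90, with no treatment named, and each breed had 1 methylome. Enshi black pig is a Chinese breed, Large White pig is a European breed and Chinese wild boar is their undomesticated relative. The labels name 3 male pigs, without saying whether these were pooled or 1 of each breed. Without replicates, a difference between breeds cannot be told apart from a difference between animals.

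In mammals, methylation is found mainly on cytosines that precede guanine, and most of these sites are highly methylated in adult tissue. Dense clusters of CG sites, called CpG islands, usually escape methylation and often lie at gene starts. CG-poor DNA with a low or intermediate level is known from distal regulatory elements such as enhancers, where bound transcription factors go together with low methylation. The selection rule took its limit from that kind of element. No chromatin mark, transcription factor or genome sequence was used here, so it was not tested whether the regions are active elements, and they are called CG-poor low regions below.

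Between ES and LW, the level of the lower breed ran from 3.21% to 33.5% with a median of 12.9%, and that of the higher breed from 23.5% to 39.9% with a median of 35.6%. Between ES and WB, the lower breed ran from 2.66% to 35.6% with a median of 13.2%, and the higher breed from 21.8% to 39.98% with a median of 36.2%. Between LW and WB, the lower breed ran from 3.97% to 20.4% with a median of 11.2%, and the higher breed from 27.6% to 38.7% with a median of 35.4%. The usual region thus paired a level in the thirties with one in the low teens or below, and the levels of the higher breed gathered just under the limit. At most 10% was reached by the lower breed in 45 of the 150 regions, and at most 20% in 147.

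**Figure D1:**
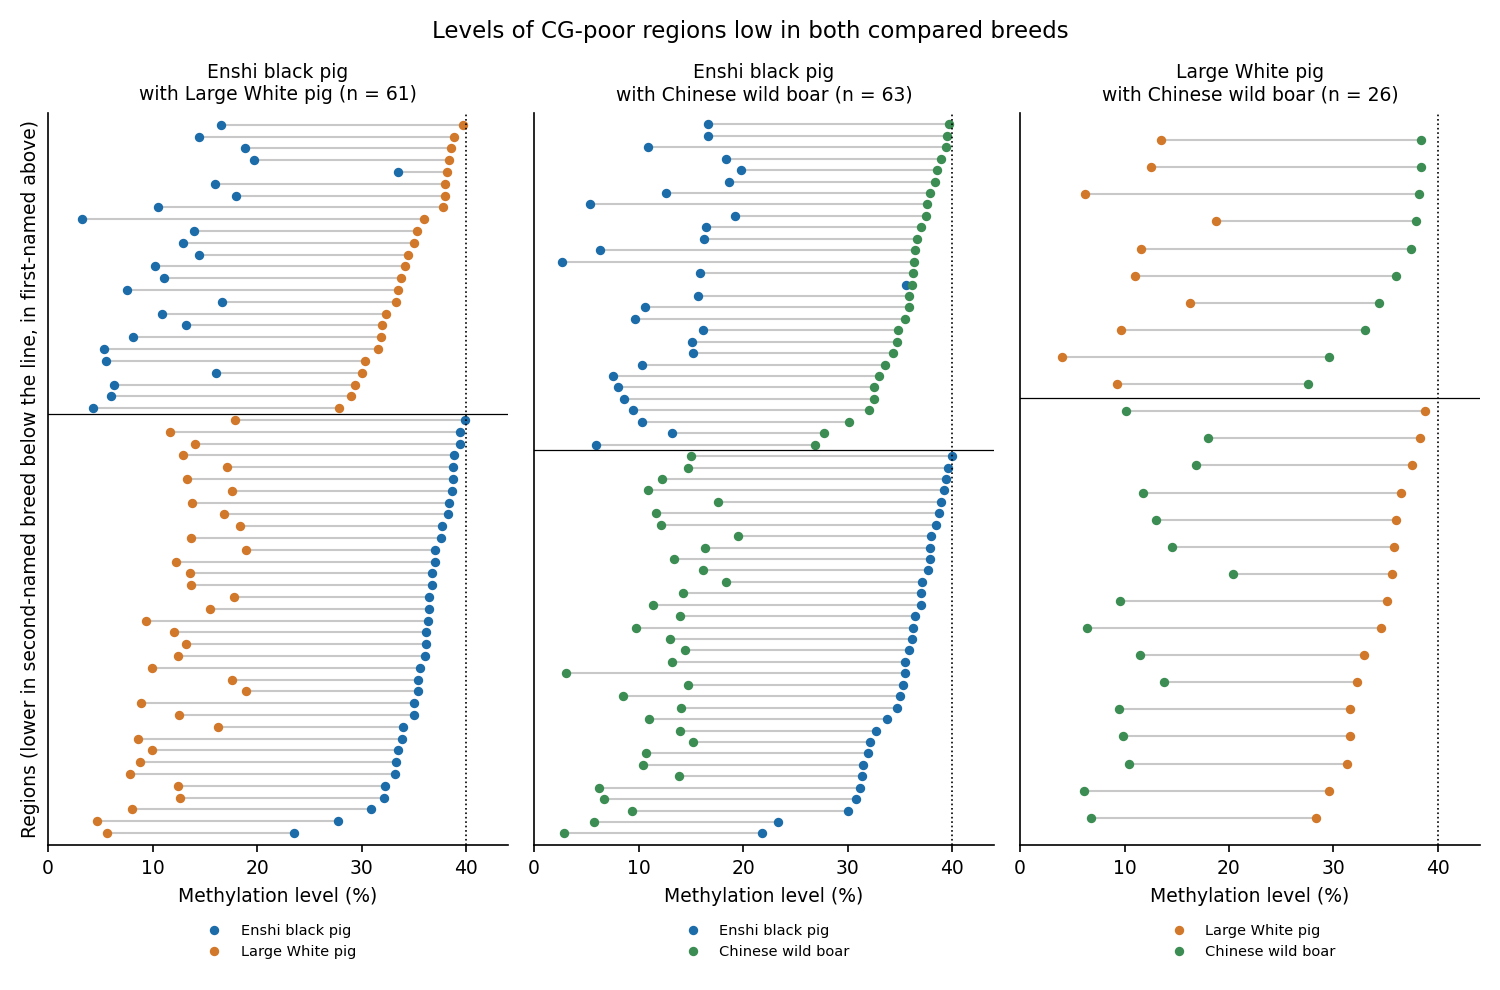
Methylation level (x axis, %) of every CG-poor low region in the 3 comparisons, 1 row per region, with both breeds as coloured points joined by a line and the 40% limit dotted; rows below the horizontal line were lower in the second-named breed and rows above it in the first-named. Most lines are of similar length, the higher breed sits mostly between 30% and 40%, and 1 row of ES-WB has both points near 36%.

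The median difference was 23.0 percentage points between ES and LW (SD over regions 3.98), 22.3 points between ES and WB (SD 4.78) and 22.5 points between LW and WB (SD 3.71). In the short CG-poor regions above the limit, whose levels could differ by more, the medians were 36.0, 35.7 and 37.5 points. The limit itself bounds the difference of the low regions at 40 points. Only 6 of the 150 differed by 30 points or more and only 4 by less than 15.

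The first-named breed was lower in 25 of 61 regions of ES-LW (41.0%, 95% Wilson interval 29.5% to 53.5%), where 54.4% of all autosomal regions of that comparison were lower in ES. ES was lower in 29 of 63 regions against WB (46.0%, interval 34.3% to 58.2%), beside 54.9% of all autosomal regions. LW was lower than WB in 10 of 26 (38.5%, interval 22.4% to 57.5%), beside 51.0%. These intervals cover counting only, and since the rule used the levels, nothing is read from the directions.

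The widest of the low regions in level, chosen for their difference, were mostly small. At chr2:62914260-62914468 (positions on the Sscrofa10.2 build, here and throughout), with 4 CG sites, ES had 2.66% and WB 36.4%, a difference of 33.7 points. At chr1:30295689-30295772, with 5 sites, ES had 3.21% and LW 36.0%, or 32.8 points. The third, chr6:83574752-83575035, held 22 CG sites, at 35.5% in ES and 3.10% in WB. Next came chr11:85280839-85280935, with 7 sites at 5.39% in ES and 37.6% in WB, and chr9:116504311-116504362, with 5 sites at 6.19% in LW and 38.2% in WB. In 4 of these 5 the first-named breed was the lower one.

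At the other end stood regions in which both breeds had nearly the same mean level. The region chr12:43792541-43793029 (7 CG sites over 489 bp) had 35.6% in ES and 36.2% in WB, a difference of 0.550 points. It held 2 listed single CG sites, both at 98.7% in ES and 27.7% in WB, which is the opposite direction and far larger than the mean difference. The mean level of the region therefore does not describe these 2 listed sites. Their levels were equal in each breed, so they may not be separate readings. The standard error of their difference, from the authors' model, was 7.42 to 12.0 points. The region chr6:136062339-136062817 (11 CG sites) had 33.5% in ES and 38.1% in LW, and no listed site inside it. These regions were among the 5 with the fewest CG sites per 100 bp, at 1.43 and 2.30, and were chosen here after their values were seen.

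The 40% limit cut through a continuous range. Just inside it, chr4:116034355-116034875 had 39.98% in ES and 15.03% in WB, and chr4:16756193-16756306 had 39.9% in ES and 17.9% in LW. Just outside it, chr14:98024727-98025100 had 40.02% in ES and 12.6% in LW, and chr5:85114412-85114717 had 17.3% in ES and 40.03% in WB.

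The regions lowest in both breeds were chosen by the level of the higher one. The lowest of all, chr1:111889733-111889809, had 21.8% in ES and 2.89% in WB over 4 CG sites. Second was the place chr18:26579724-26579851, with 9 CG sites at 23.5% in ES and 5.65% in LW, which ES-WB listed as well. In ES-LW, chr11:72425184-72425254 followed with 27.8% in ES and 4.64% in LW, and in ES-WB, chr14:114671781-114671926 with 5.92% in ES and 26.8% in WB. The lowest of LW-WB was chr1:159363308-159363395, with 7 sites at 9.28% in LW and 27.6% in WB. The higher breed was thus above 20% in each of the 150 regions.

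The regions were short, from 51 to 924 bp. Their median length was 160 bp between ES and LW, 149 bp between ES and WB and 128 bp between LW and WB, against 183, 180 and 171 bp in the short CG-poor regions above the limit. The longest was chr4:104649383-104650306, whose 924 bp held 6 CG sites at 35.4% in ES and 18.9% in LW. Next was chr16:29150001-29150879, whose 879 bp held 43 sites at 36.4% in ES and 13.9% in WB. Of the 150, 41 were shorter than 100 bp and 11 were 500 bp or longer. They held 4 to 74 CG sites, with 4 or 5 sites in 40 regions and 20 or more in 40 others. The median number of CG sites was 10, 9 and 7 in the 3 comparisons in the same order, and 7 in each comparison above the limit.

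**Figure D2:**
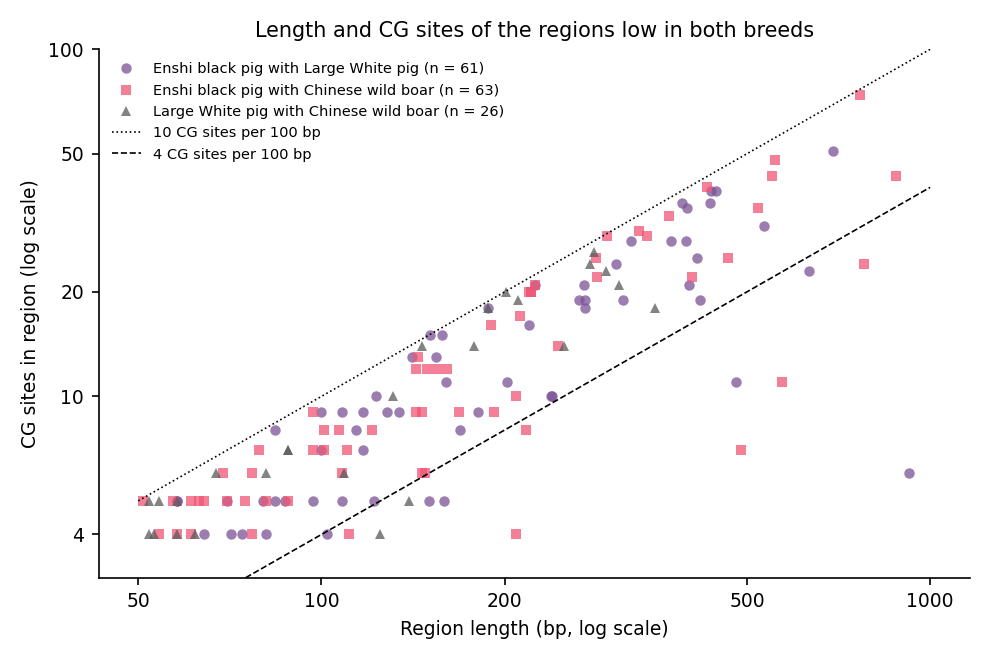
Length (x axis, bp, log scale) and number of CG sites (y axis, log scale) of the 150 CG-poor low regions, by comparison; the dotted line marks the limit of 10 CG sites per 100 bp and the dashed line 4 per 100 bp. Most points lie between both lines, and the region of 924 bp with 6 CG sites lies farthest below them.

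Although chosen as CG-poor, the regions lay toward the dense side of that class. Their median was 7 CG sites per 100 bp between ES and LW, 7.45 between ES and WB and 7.86 between LW and WB, against 4.81, 4.94 and 5.16 in the short CG-poor regions above the limit. Of the 150, 104 had 6 or more sites per 100 bp and 14 had fewer than 4. Over the 3 comparisons, the share of regions below 1 kb that were at or below 40% in both breeds was 0.262% (4 of 1529, 95% Wilson interval 0.102% to 0.671%) with fewer than 2 CG sites per 100 bp and 0.227% (10 of 4399, interval 0.124% to 0.418%) with 2 to 4. It was 0.707% (32 of 4523, interval 0.502% to 0.997%) with 4 to 6, 1.45% (53 of 3657, interval 1.11% to 1.89%) with 6 to 8 and 2.19% (51 of 2328, interval 1.67% to 2.87%) with 8 to 10. Beyond the density limit of the rule it was 4.23% (118 of 2787, interval 3.55% to 5.05%) with 10 to 15 sites and 6.92% (67 of 968, interval 5.49% to 8.70%) with 15 or more. From 2 sites per 100 bp upward, each denser class thus had a higher share than the one before it, also past the limit of 10. The same region can be listed in 2 comparisons, so the pooled intervals count some regions more than once.

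**Figure D3:**
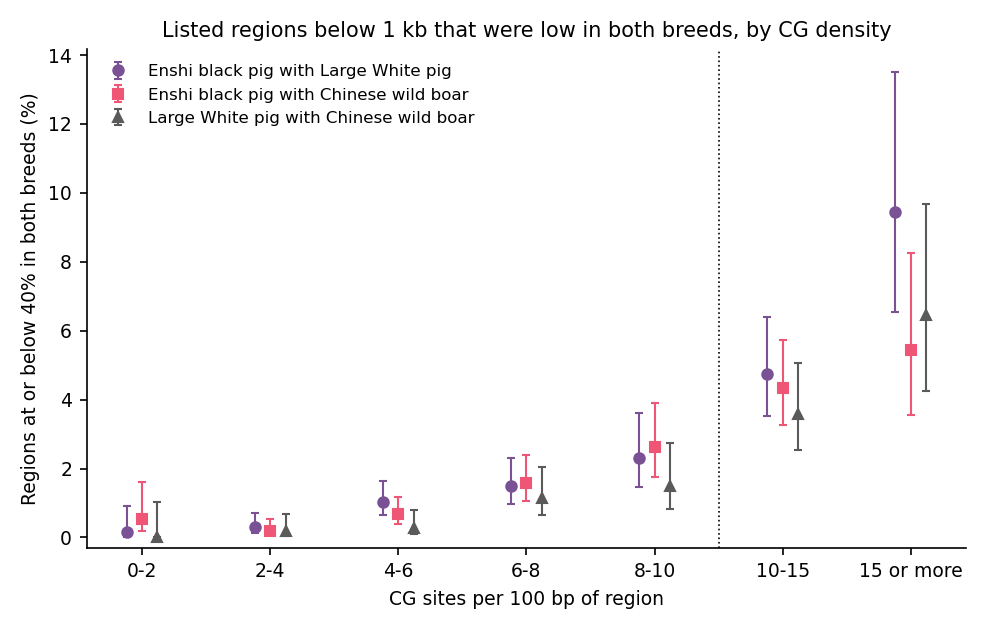
Share of listed regions below 1 kb that were at or below 40% in both breeds (y axis, %) by CG sites per 100 bp (x axis), with 95% Wilson intervals, for each comparison; the dotted line marks the limit of 10 CG sites per 100 bp. From 2 sites per 100 bp upward all 3 comparisons rise toward denser regions on both sides of that limit, the sparsest class has at most 0.547% and the densest between 5.43% and 9.45%, and the lowest class of LW-WB holds 0 of 366.

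Among the regions with the most CG sites, chosen by that number and not by their difference, ES was the higher breed in 9 of the 10 named from its 2 comparisons, beside 36 of 61 and 34 of 63 of all CG-poor low regions of ES-LW and ES-WB. That share depends on naming 5 per comparison. After the 5 of ES-WB came a region of 35 sites that was higher in ES. The next ones, chr5:24181355-24181727 (33 sites), chr14:32911967-32912298 (30 sites) and chr12:43957600-43957941 (29 sites), were lower in ES. Nothing is read from these directions. The largest by number was chr14:118746820-118747587, with 74 CG sites at 38.5% in ES and 12.2% in WB. A region of 51 sites, chr7:34379776-34380467, had 39.5% in ES and 11.7% in LW. At chr14:152231291-152231847, 48 sites had 39.4% in ES and 12.3% in WB. The 43 sites of chr6:50373139-50373687 had 38.7% in ES and 11.7% in WB. Against these stood chr12:46950008-46950442, with 36 sites at 5.32% in ES and 31.6% in LW. The LW-WB comparison had smaller regions, led by chr8:63673615-63673894 with 26 sites at 35.8% and 14.5% and chr6:54581173-54581448 with 24 sites at 3.97% and 29.5%.

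Single CG sites listed by the authors fell inside few of the regions. A listed site lay in 6 of 61 regions of ES-LW (9.84%), beside 37.2% of all autosomal regions. In ES-WB it was 10 of 63 (15.9%), beside 35.7%. In LW-WB it was 2 of 26 (7.69%), beside 36.4%. The smallest difference of any listed site was 28.5, 28.3 and 29.0 points in the 3 tables, a size that 1, 5 and 1 of the CG-poor low regions reached as their mean. Short CG-poor regions above the limit whose difference lay in the range of the low regions held a listed site in 7.39%, 8.71% and 7.61% of cases.

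In all, 41 listed sites lay in the 18 regions, among 2142 CG sites in the 150. At chr3:270462-270858, 6 listed sites had 45.5% to 53.3% in ES and 10.7% to 18.8% in LW, while the region mean was 35.0% and 8.93%. At chr12:46950008-46950442, 6 sites had 4.34% to 4.45% in ES and 39.7% to 47.3% in LW. At chr6:83574752-83575035, 3 sites had 36.4% in ES and 2.51% in WB, close to the mean of the region. Their levels were equal in each breed, so these too may not be separate readings. The standard error that the authors' model gives for the difference at these 3 sites was 1.52 to 1.76 points, against 7.42 to 12.0 points at both sites of chr12:43792541-43793029. These errors belong to the model of 2 methylomes and do not hold the spread between animals.

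The CG-poor low regions had another listed region of the same comparison within 5 kb in 18 of 61 cases between ES and LW (29.5%, 95% Wilson interval 19.6% to 41.9%), beside 14.4% of all autosomal regions. Between ES and WB this was 17 of 63 (27.0%, interval 17.6% to 39.0%), beside 14.5%. Between LW and WB it was 4 of 26 (15.4%, interval 6.15% to 33.5%), beside 15.3%. Both intervals of the ES comparisons lay above the share of all regions, and that of the remaining comparison held it. Neighbouring regions are not independent of each other, so the intervals may be too narrow. Both ES comparisons also share the ES methylome and some of the same places, so their intervals are not separate support.

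The neighbour within 5 kb was lower in the same breed in 23 of these 39 cases and in the other breed in 16. By comparison this was 9 of 18 in ES-LW, 12 of 17 in ES-WB and 2 of 4 in LW-WB, beside 72.5%, 69.5% and 76.7% of the short CG-poor regions above the limit that had such a neighbour. Within 1 kb, 17 of 21 neighbours had the same direction. The neighbour was itself at or below 40% in both breeds in 11 of the 39 cases, beside 2.54%, 1.87% and 0.890% above the limit in the 3 comparisons. Those 11 include the pairs of CG-poor low regions described below, each pair counted from both sides. In 14 of the 39 cases the neighbour held 10 or more CG sites per 100 bp, and in 7 of them it was also at or below 40% in both breeds. One case of that kind was chr12:43957600-43957941, with 29 sites at 8.64% in ES and 32.5% in WB, which lay 72 bp from a region of 23 sites and 15.9 sites per 100 bp at 9.49% and 27.8%. A second was chr6:54581173-54581448, at 3.97% in LW and 29.5% in WB, 89 bp from a region of 13 sites and 18.1 sites per 100 bp at 4.24% and 21.8%. In both, the CG-poor region bordered a denser region of similar levels as that comparison listed them. At the first place, ES-LW listed 1 region of 66 sites, chr12:43957354-43957941, which held both. At the second, a region of 78 sites in ES-LW, chr6:54581197-54581809, covered 91.3% of the CG-poor region. Neither of these was CG-poor under the rule, so the ends chosen in a comparison decided what counted as CG-poor there.

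Pairs of CG-poor low regions lay side by side at 2 places. On chromosome 14, chr14:152230451-152231229 (24 sites, 30.04% in ES and 9.38% in WB) was 61 bp from chr14:152231291-152231847 (48 sites, 39.4% and 12.3%). On chromosome 12, chr12:46949521-46949833 (19 sites, 6.03% in ES and 29.0% in LW) was 174 bp from chr12:46950008-46950442 (36 sites, 5.32% and 31.6%). Each pair had the same lower breed throughout.

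Other regions sat beside a neighbour of the opposite direction, and those named next were chosen after their values were seen. At chr7:122037663-122037770, ES had 37.6% and LW 13.6%, while 336 bp away a region of 44 sites had 59.5% and 93.7%. At chr14:32911874-32912248, ES had 7.51% and LW 33.5%, while 620 bp away a region of 17 sites had 72.6% and 46.4%. At chr4:108707561-108707683, ES had 33.5% and LW 9.98%, while 1567 bp away a region of 13 sites had 10.1% and 64.9%. The breed that was lower in the CG-poor region was thus the higher one a short distance away.

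The 3 comparisons share breeds, and the same stretch can therefore be listed more than once from 1 methylome. Merging overlapping regions left 134 places, since 16 places were held by a CG-poor low region of 2 comparisons, and no region overlapped CG-poor low regions of both other comparisons. By the rule, the levels of all 3 breeds were at most 40% in each of the 16. The breed common to both comparisons was above both others or below both. Under the 40% limit, 2 differences of the median size (22.3 to 23.0 points) cannot be stacked. The rule thus favoured this pattern, and it is no separate finding. The common breed was ES in 10 places, WB in 4 and LW in 2. Its level differed between both tables by a median of 0.572 points and by at most 3.90 points, and both tables gave the same region ends in 2 of the 16 places. The levels of the other breeds differed by 0.0478 to 7.58 points, with a median of 2.89.

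**Figure D4:**
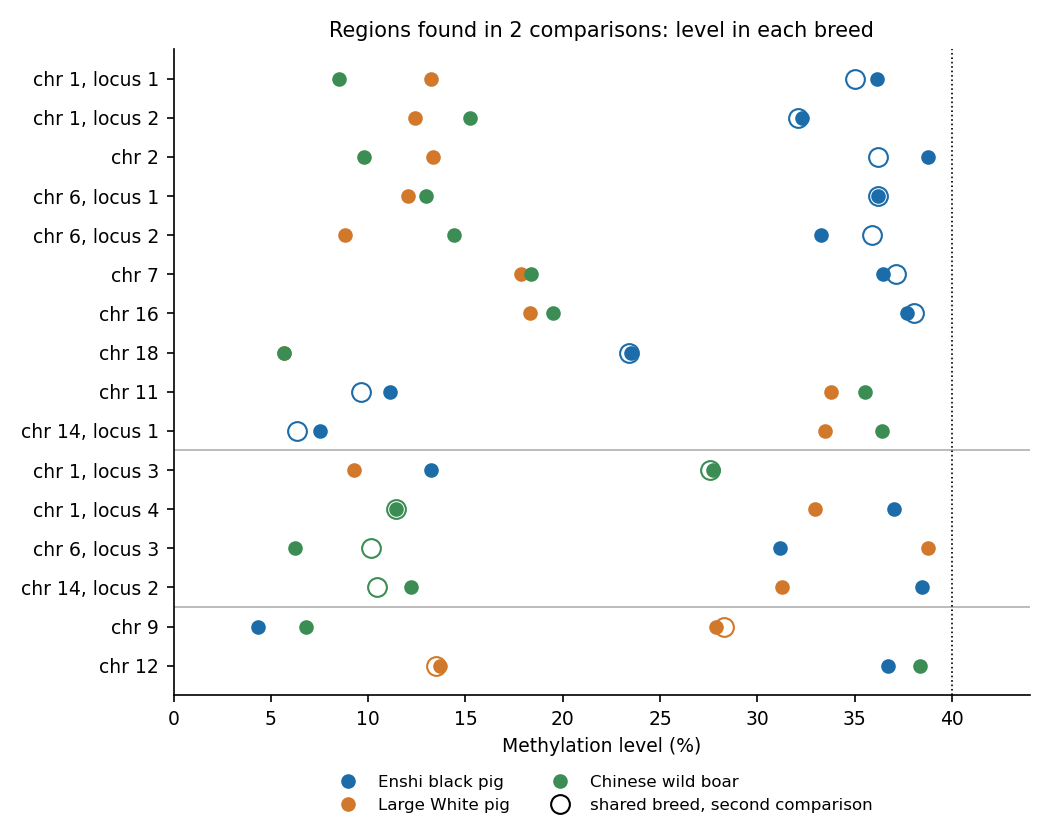
Level (x axis, %) of each breed at the 16 places held by a CG-poor low region of 2 comparisons (y axis, by chromosome, with places of 1 chromosome numbered by position), with the level of the common breed in the second comparison as an open circle and the 40% limit dotted. The blocks from top to bottom hold places with ES, WB and LW as the common breed, and at the place on chromosome 18 the point of LW at 5.65% lies under that of WB at 5.70%.

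ES was above the other breeds in 8 of its 10 places. The interval chr6:4364911-4365134 (21 CG sites) was listed with the same ends in both comparisons, at 36.2% in ES in each, 12.0% in LW and 13.0% in WB. The lowest of these places, chr18:26579724-26579851, had 23.5% in ES, 5.65% in LW and, over chr18:26579731-26579851, 5.70% in WB. At chr1:36884732-36884882 ES had 36.1% and LW 13.2%, and over the longer chr1:36884722-36884940 ES had 35.0% and WB 8.50%.

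ES was below both others on chromosomes 11 and 14. At chr14:32911874-32912248 it had 7.51% with LW at 33.5%, and at the overlapping chr14:32911967-32912298 it had 6.32% with WB at 36.4%. At chr11:63660942-63661406 (25 sites) it had 9.62% with WB at 35.5%, and in the inner part chr11:63661257-63661406 it had 11.1% with LW at 33.8%.

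WB was the low breed in 3 of its 4 places. The interval chr1:288680875-288680932 (4 CG sites) was again listed with the same ends, at 37.0% in ES, 33.0% in LW and 11.4% in WB. Inside the region of 74 sites on chromosome 14, chr14:118747348-118747478 had 31.3% in LW and 10.5% in WB over 10 sites. The exception was chr1:159363308-159363395, at 9.28% in LW and 27.6% in WB, where ES had 13.2% over chr1:159363308-159363371. LW was the high breed at chr9:11490360-11490624, with 27.9% against 4.34% in ES and, over chr9:11490446-11490503, 6.78% in WB. It was the low breed at chr12:49539625-49539694, with 13.7% against 36.7% in ES and, over chr12:49539625-49539705, 38.4% in WB.

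The third breed could also be read where any listed region of another comparison covered 50% or more of a CG-poor low region, which was the case for 56. Its level there was 4.34% to 67.5%, and at most 40% in 43 of the 56. That number was partly set by the rule. Where the overlapping region was itself a CG-poor low region, the third level was at most 40% by selection. Such a place could also count from both comparisons. The highest value was that of LW in ES-LW at chr8:93332944-93333135, which a region of LW-WB also covered, with LW at 57.4%. In the other 13 the third breed read above 40%. Some of these were just over that limit, such as LW with 40.2% at chr12:5928976-5929381 and ES with 40.5% at chr2:69196796-69197088. The region that gave the third level could have other ends. The widest step, chosen after its values were seen, was at chr1:30295689-30295772, with 3.21% in ES and 36.0% in LW, where the overlapping region of 6 CG sites had 66.7% in WB. At chr6:77603076-77603216, with 13 CG sites, ES had 8.14% and LW 31.9%. The overlapping region of 30 sites was longer, with 17.7% in ES and 56.9% in WB. A place low in both breeds of a comparison was therefore not always low in all 3.

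The regions were spread over all 18 autosomes, with 1 to 19 on each. The highest numbers were 19 on chromosome 1 and 19 on chromosome 6, and chromosome 10 had 1. As a share of the listed regions, chromosome 12 was first with 15 of 1006 (1.49%, 95% Wilson interval 0.906% to 2.45%), against 0.729% over all autosomes. On chromosome 12, ES was lower in 10 of the 13 regions from its 2 comparisons. These include the region of nearly equal means at chr12:43792541-43793029 and the pair side by side described above. Chromosome 4 held 8 regions of ES-LW, and LW was the lower breed in each of the 8. On chromosomes 1 and 6, ES was lower in 7 of 16 and 5 of 15 regions from its 2 comparisons. Over all autosomal regions, ES was lower in 54.4% against LW and 54.9% against WB. That share was not tabulated for single chromosomes. Chromosomes 4 and 12 were named after their counts were seen, no test was made, and nothing is read from their directions.

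Gene models of the same build were at hand only in part and only for chromosome 1, as isoforms from the study's long-read sequencing of transcripts. Those transcripts came from a pool of many tissues of adult and newborn Large White sows and an embryo, not from the male pigs compared here. The region with the lowest level of a higher breed, chr1:111889733-111889809, lay inside isoform 1.2738.1 (chr1:111889455-112366007, plus strand, 2 exons, no gene symbol). It began 278 bp after the start of that isoform and 119 bp past the end of its first exon, in the intron, with 21.8% in ES and 2.89% in WB. By this 1 isoform, the region lay near a transcript start. Whether that start is used in the liver of these breeds was not tested. A second region, chr1:103525305-103525447, began 42 bp past the end of isoform 1.2685.2 (chr1:103499997-103525263, plus strand). For the other regions the distance to genes was not analysed here.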

How the data were processed

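Bisulfite converts unmethylated but not methylated cytosine, and converted liver DNA was amplified by PCR and sequenced. For each pair of breeds, the authors deposited a table of CG sites and a table of regions called different, in which the level of each breed is an estimated fraction. Reads were aligned to Sscrofa10.2, and Bismark 0.15.0 is the tool named in the submitters' processing notes. The program behind the calls, with its cut-offs, was not given in the sources used here. Depth is unknown.

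Levels were multiplied to percent, and shares were given 95% Wilson intervals (Python 3.11.15, numpy 2.4.6, pandas 2.3.3, scipy 1.17.1, matplotlib 3.10.9), which cover counting error only. The deposited difference, area statistic, test statistic, dispersion, p-value, false discovery rate and posterior probability are the authors' own comparison and were not used, except the standard error of a site's difference.

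Level columns are numbered and were assigned by the order of breed codes in each table's name. At sites shared by 2 tables, columns read as the same breed differed by a median of 0.0160 to 0.0285 points, and columns read as different breeds by at least 3.93 points. The labels attach the ES-WB tables to the LW sample and the LW-WB tables to the WB sample.

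The selection rule and all tabulations were chosen with earlier results of these data known. Named regions were, per comparison, the 5 with the most CG sites, the 5 with the largest difference, the 3 with the lowest level of the higher breed and the 3 longest, with the regions at the 40% limit, the closest pairs and those within 2 kb of a gene model, and the main ones of these were described. Selection, neighbour and overlap steps were tested on simulated data. With 1 methylome per breed no test was made, and no sequence was shown because no genome of this build was used.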

Additional observations from a re-analysis of the deposited data

How the results depend on the processing

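Values are given in the order ES-LW, ES-WB, LW-WB. Each choice was changed alone, and 83 of 123 recomputed values moved by less than the spread over regions, the Wilson interval of the share or 1.5 times the count. The spread over regions is a wide margin for a median. With a difference of at least 0.30, the ES-WB median length went from 149 to 246.5 bp over 4 regions. That shift still lay within the margin, so the count of 83 is no measure of robustness. A level limit of 0.30 left 5, 4 and 4 regions, with a median higher level of 27.9%, 25.1% and 28.9%, and ES was then lower than LW in 60%. A limit of 0.50 gave 196, 232 and 122 regions with a median higher level of 43.4%, 43.5% and 44.1%. A CG density below 0.05 left 14, 11 and 2 regions with a median of 4.14, 3.69 and 3.40 CG sites per 100 bp, and the first-named breed was lower in 64.3%, 27.3% and 0%. A difference of at least 0.30 left 1, 4 and 1 regions with a median difference of 32.8, 32.3 and 32.0 points, the first-named breed being lower in 100%, 75% and 100%. Each of these settings keeps fewer or more regions by its own construction. Means over listed CG sites, present in 6, 10 and 2 regions, gave a median higher level of 45.0%, 43.1% and 42.0% and a median difference of 36.5, 34.3 and 34.9 points. Another listed region lay within 1 kb of 13.1% and 15.9% of the regions in the comparisons of ES, and within 20 kb of 44.4% of those with WB. Limits on length (500 bp) and on CG sites (5) and the stricter overlap moved none of the values computed under them by more than these margins. No paired analysis was possible because there was 1 methylome per breed. The alternatives on gene context and on sequence motifs were not run, since no annotation or genome of Sscrofa10.2 was used. The unknown depth limits every level.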
